A study of Homo sapiens with 6 samples.

Results

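Genes detected only after maltonis were defined in NB4, a human cell line of acute promyelocytic leukemia that carries the PML-RARA fusion. A gene symbol belonged to them when it had at least 1 count in all 3 libraries of cells treated with 10 µM maltonis, a synthetic hydroxypyrone derived from maltol, and 0 counts in all 3 libraries of cells left not treated. This rule found 207 symbols among the 23368 listed and the 18253 with a count in any library. RNA was sequenced after 24 h from rRNA-depleted stranded libraries. The not treated libraries held 19385279, 38205483 and 34479562 counts for replicates 1, 2 and 3, and the maltonis libraries held 18492154, 32229832 and 27160576. The control group was thus the deeper of the groups, with 92070324 counts in sum against 77882562. NB4 is a single line, and the replicates are called biological in the study's methods, although the sample labels do not say that they were separate cultures, so any p-value below measures the spread between these libraries.

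A differentiated or leukemic blood cell transcribes its own repertoire, while many genes of other tissues are kept silent by DNA methylation, Polycomb marks or H3K9me3-rich heterochromatin. Silencing is seldom complete, and deep sequencing of many cells picks up single reads from many genes that are regarded as tissue-restricted. Detection is therefore a matter of depth as well as of expression. In a bulk sample, a gene transcribed strongly in few cells and one transcribed weakly in many cells cannot be told apart.

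Because the counts of both groups chose the genes, their absence from not treated cells and their presence after maltonis are the definition and carry no test. The 207 symbols made up 1.13% of the detected symbols. The same rule with the groups exchanged found 40 symbols, or 0.219%, although the not treated libraries were deeper. In between, 308 symbols had a count in 2 maltonis libraries and no not treated library and 990 in 1 maltonis library, against 94 and 428 with the groups exchanged. At the other end, 14038 symbols had a count in all 6 libraries and 5115 in none.

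**Figure D1:**
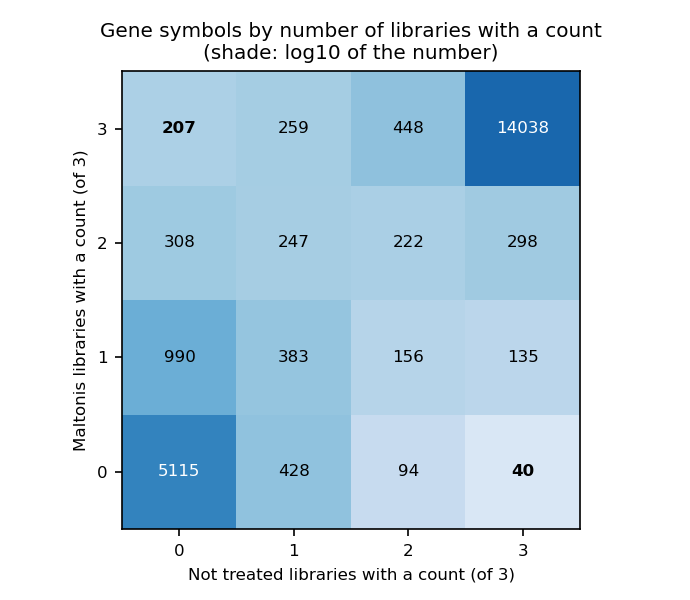
Number of gene symbols by how many of the 3 not treated libraries (horizontal axis) and of the 3 maltonis libraries (vertical axis) held at least 1 count; the shade is the log10 of the number. The corner of genes detected only after maltonis holds 207 symbols, and the opposite corner holds 40.

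Most of these genes reached few counts. The median of the counts summed over the 3 maltonis libraries was 7 and the highest was 527. The smallest possible sum, 3, was found for 19 symbols with a single count in every library, and a sum of 3 has an exact 95% Poisson interval of 0.619 to 8.77 for counting error alone. A sum of at least 10 was reached by 74 symbols, at least 30 by 22 and at least 100 by 4. All genes together took 917, 1394 and 1150 counts in maltonis replicates 1, 2 and 3, which corresponds to 49.6, 43.3 and 42.3 CPM (counts scaled to a common library total). The 10 genes with the highest sums held 40.4% of these counts and XKR7 alone held 15.2%. At a stricter minimum the number fell to 89 symbols with at least 2 counts in every maltonis library, 57 with at least 3, 29 with at least 5 and 12 with at least 10. The corresponding numbers for symbols detected only without treatment were 18, 13, 4 and 1, and the highest sum there was 40.

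**Figure D2:**
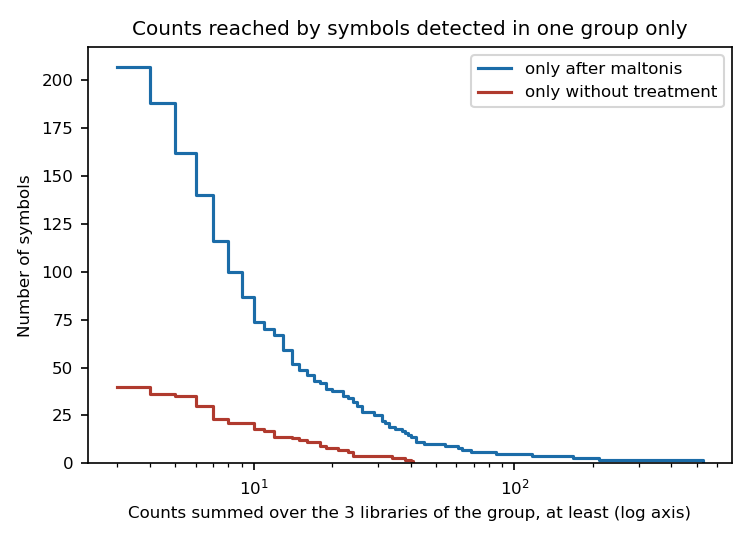
Number of symbols (vertical axis) whose counts, summed over the 3 libraries of the group in which they were detected, reached at least the value on the horizontal log axis. The line for genes detected only after maltonis starts at 207 and reaches 527 counts, and the line for genes detected only without treatment starts at 40 and ends at 40 counts.

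The floor of detection was set at 3 counts over the 3 not treated libraries, or 0.0326 CPM. Folds are given below as lower bounds against this floor, computed from the pooled counts of each group. The floor allows only for counting error at 0 counts without treatment. The maltonis counts are taken as counted, so their own counting error and the spread between libraries are not covered. Nor do the bounds allow for the choice of the genes by their 0 counts, or for any scaling other than library totals. For 27 genes the bound was at least 10-fold.

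XKR7, a member of the XK-related family of membrane proteins, reached the most counts. It had 0 counts in each not treated library and 139, 237 and 151 counts in maltonis replicates 1, 2 and 3. This corresponds to 6.81 ± 1.09 CPM (SD, n = 3) and was at least 208-fold higher than in not treated cells. No maltonis library was close to zero, and the 3 values lay within a narrow range of CPM.

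ZNF366, a zinc finger factor known from dendritic cells, had 61, 81 and 69 counts (2.78 ± 0.446 CPM, SD, n = 3, at least 83.2-fold higher). TMEM56, now named TLCD4, encodes a membrane protein with a TLC domain and had 34, 76 and 58 counts (2.11 ± 0.261 CPM, at least 66.2-fold higher). The reads of TMEM56 are uncertain, because a readthrough gene, TMEM56-RWDD3, covers it on the same strand and had 2, 16 and 15 counts without treatment and 6, 8 and 8 with maltonis. The long noncoding RNA LOC100289211, now LINC00624, had 34, 41 and 42 counts (1.55 ± 0.283 CPM, at least 46.1-fold higher). It overlaps CHD1L on the opposite strand, which fell by 0.72 ± 0.0622 (SE) on the log2 scale (adjusted p = 9.8e-06, edgeR's quasi-likelihood test, Benjamini-Hochberg adjusted over all genes tested, as for all edgeR values below). Together with XKR7 these were the 4 symbols that reached a sum of 100 counts.

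**Figure D3:**
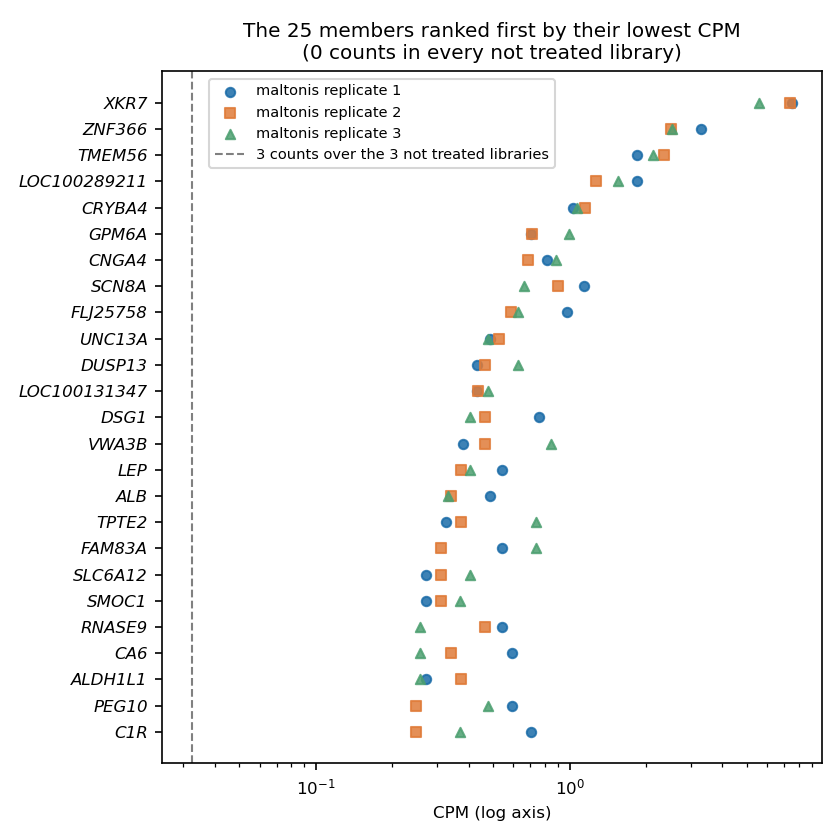
CPM (log axis) in maltonis replicates 1, 2 and 3 for the 25 genes ranked first by their lowest CPM, each with 0 counts in every not treated library; the dashed line is 0.0326 CPM, which corresponds to 3 counts over the not treated libraries. XKR7 stands apart at 5.56 to 7.52 CPM, and every point lies to the right of the line.

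The order changed when the counts were divided by gene length, here the summed exons of GENCODE 29. CRYBA4, which is short, then came first at a mean of 1.33 RPKM (CPM per kilobase), followed by XKR7 at 0.868, ZNF366 at 0.7, the pseudogene FLJ25758 at 0.686 and the noncoding DGCR10 at 0.636 RPKM. These were the 5 symbols above 0.5 RPKM, and 33 of the 203 symbols with a length were above 0.1 RPKM. The levels are thus low for nearly all of the genes, including those with the largest fold bounds.

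By gene type, the symbols resembled the detected transcriptome. Protein-coding genes numbered 183 (88.4% against 87.8% of all detected symbols), long noncoding RNAs 11 (5.31% against 6.03%) and pseudogenes 10 (4.83% against 3.52%). There was 1 miRNA gene, MIR191, with 1 count in each maltonis library, and 2 symbols, FLJ32224 and PP14571, could not be matched to the reference. None of the 220 detected symbols of small nucleolar RNA genes met the rule, where the share over all detected symbols was 1.13%. After LOC100289211, the noncoding members with the highest lowest CPM were DGCR10 (DGCR5) with 8, 7 and 8 counts, LOC100507127 (LINC00707) with 3, 9 and 3, LOC100133161 (LINC01001) with 4, 3 and 4, and LOC144742 (LINC00934) with 1, 3 and 1. The pseudogenes were led by FLJ25758 with 18, 19 and 17 counts and LOC100131347 (RDM1P5) with 8, 14 and 13, followed by AACSP1 with 3, 19 and 15, LOC440461 (ARHGAP27P2) with 6, 9 and 4, and CFL1P1 with 5, 10 and 3. A pseudogene can receive reads from its parent gene, so these counts are uncertain. The median summed exon length was 3959 bases against 4468 for all detected symbols.

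By the tissue in which they are usually expressed, 129 of the 207 genes could be placed in 9 classes, and 78 could not. The classes were assigned by hand from textbook knowledge after the names were known, so their sizes are a description. Nerve cells and synapses formed the largest class with 25 genes and 380 counts in sum. Germ cells, testis and early embryo followed with 21 genes and 231 counts, and the epithelia of skin, gut, kidney and glands with 21 genes and 218 counts. Skeleton, matrix and developmental signals had 17 genes, liver, plasma proteins and metabolism 15, blood and immune cells 12, the senses 10, muscle and heart 6, and fat tissue and placenta 2. By counts, the blood and immune class came second with 303, most of them from ZNF366. The genes thus came from many tissues.

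Among the nerve cell genes, SCN8A, a voltage-gated sodium channel of neurons, had 21, 29 and 18 counts in the maltonis libraries (0.899 ± 0.236 CPM, SD, n = 3, at least 26.8-fold higher). GPM6A, a membrane glycoprotein of neurons, had 13, 23 and 27 counts (0.804 ± 0.165 CPM, at least 24.8-fold higher). UNC13A, which primes synaptic vesicles for release, had 9, 17 and 13 counts and the smallest relative spread of these genes (0.498 ± 0.0262 CPM, at least 15.4-fold higher). Of the neuron list, 5 of the 100 detected genes (5.0%) belonged to the set, against 1.13% of all detected symbols. They were the metabotropic glutamate receptor gene GRM8 with 4, 14 and 24 counts, the synaptic vesicle gene SYN2 with 3, 8 and 3, the GABA-A receptor subunits GABRB2 with 3, 5 and 1 and GABRA4 with 2, 1 and 2, and the noradrenaline transporter SLC6A2 with 2 in each. The 1.13% includes 14038 symbols with a count in all 6 libraries, which cannot meet the rule. Of the 100 neuron genes 19 passed edgeR's filter on low counts, against 13209 of all 18253 detected symbols. On the germ cell and epithelial lists below 13 genes each passed it, so these shares are set against a less sparse background. GRM8 was lowest in the shallowest library, and the receptor subunits were near the floor in all 3. Of the 5 neuron markers, RBFOX3 had 1, 5 and 7 counts without treatment and 3, 6 and 6 with maltonis, SNAP25, SYT1 and NEFL each had at most 2 counts in any library and STMN2 had 0 in all 6.

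In the class of the senses, CRYBA4, a structural crystallin of the eye lens, had 19, 37 and 29 counts (1.08 ± 0.0614 CPM, SD, n = 3, at least 33.5-fold higher). CNGA4, a modulatory subunit of the cyclic nucleotide-gated channel of olfactory neurons, had 15, 22 and 24 counts (0.793 ± 0.102 CPM, at least 24.0-fold higher). Both genes had similar CPM in the 3 libraries. The remaining genes of this class reached at most 6 counts in any library, among them KRT12, a keratin of the corneal epithelium, with 1, 3 and 6. Of the 99 olfactory receptor genes detected, OR51E1 alone met the rule, with 1 count per library. This is 1.01%, near the 1.13% of all detected symbols.

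The germ cell class held TPTE2, a gene of the testis, with 6, 12 and 20 counts (0.478 ± 0.225 CPM, SD, n = 3, at least 15.0-fold higher). RNASE9, an epididymal member of the ribonuclease A family, had 10, 15 and 7 counts (0.421 ± 0.147 CPM, at least 12.6-fold higher). The cancer-testis antigens MAGEB2 and SSX1 had 2, 4 and 3 counts and 1, 2 and 1 counts, and they were 2 of 69 detected genes (2.9%) of the germ cell list, against 1.13% of all detected symbols. The germ cell markers DDX4 and PRM1 were at 0 in all 6 libraries, and SYCP3 had 11, 9 and 14 counts without treatment and 1, 8 and 4 with maltonis.

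Among epithelial genes, DSG1, a desmosomal cadherin of the epidermis, had 14, 15 and 11 counts (0.543 ± 0.188 CPM, SD, n = 3, at least 15.8-fold higher), and CA6, the carbonic anhydrase secreted in saliva, had 11, 11 and 7 counts (0.398 ± 0.176 CPM, at least 11.4-fold higher). Of the epithelial list, 5 of 71 detected genes (7.04%, against 1.13% of all detected symbols) met the rule: DSG1, KRT12, the cornified envelope gene LCE3A with 1, 4 and 2 counts, the tight junction gene CLDN18 with 2, 4 and 2 and the mucin gene MUC17 with 1, 1 and 4. The neighbours of DSG1 in the desmosomal cadherin cluster did not share its level: DSC1 had 0 counts without treatment and 0, 2 and 1 with maltonis, and DSG4 had 0 in all 6 libraries.

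In the liver and plasma class, ALB, the serum albumin gene, had 9, 11 and 9 counts (0.387 ± 0.087 CPM, SD, n = 3, at least 11.4-fold higher). The other markers of hepatocytes did not follow it, since APOB, TTR and FGB had 0 counts in all 6 libraries, as had AFP, the gene beside ALB. APOA1 was present in both groups, with 13, 25 and 13 counts without treatment and 19, 23 and 30 with maltonis. The coagulation factor gene F10 had 1, 2 and 1 counts. SLC6A12, a transporter of betaine and GABA in liver and kidney, had 5, 10 and 11 counts (0.329 ± 0.0691 CPM, at least 10.2-fold higher). ALDH1L1, a folate enzyme of liver and astrocytes, had 5, 12 and 7 counts (0.3 ± 0.0628 CPM, at least 9.46-fold higher). C1R, a protease of the classical complement pathway, had 13, 8 and 10 counts (0.44 ± 0.236 CPM, at least 12.2-fold higher). The reads of C1R are uncertain, because C1RL overlaps it on the same strand and had 40, 65 and 64 counts without treatment.

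LEP, the fat tissue hormone leptin, had 10, 12 and 11 counts (0.439 ± 0.0893 CPM, SD, n = 3, at least 13-fold higher). PEG10, an imprinted gene of the placenta that derives from a retrotransposon, had 11, 8 and 13 counts (0.441 ± 0.176 CPM, at least 12.6-fold higher). In the muscle class, DUSP13, a phosphatase of skeletal muscle and testis, had 8, 15 and 17 counts (0.508 ± 0.103 CPM, at least 15.8-fold higher). SMOC1, a matricellular protein with roles in eye and limb development, had 5, 10 and 10 counts (0.316 ± 0.0492 CPM, at least 9.85-fold higher). VWA3B had 7, 15 and 23 counts and FAM83A had 10, 10 and 20, and neither was placed in a class. No gene of the muscle list (51 detected genes) or of the fibroblast, bone and matrix list (71 detected genes) met the rule, counts that are near the share of 1.13% over all detected symbols.

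Of the 83 detected interferon-stimulated genes on the list, which respond to secreted interferon, none was detected only after maltonis. At the share of 1.13% over all detected symbols, a list of this size would hold few members or none. All 83 had a count in at least 1 not treated library. Of the genes on this list, 64 of the 73 that could be tested were higher after maltonis and 3 lower (edgeR, FDR under 0.01), whereas 31.9% of all 13209 genes tested were higher and 32.1% were lower. Of 9 detected type I and III interferon genes, IFNA13 alone met the rule, with 1 count in each library. IFNA13 is a near-identical copy of IFNA1, so its counts are uncertain. No detected interleukin or TNF family ligand (46 genes) and no chemokine (32 genes) met the rule, and at the share of 1.13% over all detected symbols lists of this size would hold few members or none. The granzyme gene GZMH of T and NK cells had 3, 7 and 4 counts, and the chemokine receptor gene XCR1 of cross-presenting dendritic cells had 1, 3 and 3.

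The libraries carried markers of the labelled cell type, and also some markers of other lineages in both groups. The 11 markers of promyelocytes, most of whose counts came from MPO, summed to between 14200 and 16300 CPM without treatment and between 9610 and 10200 CPM with maltonis. Without MPO the other 10 summed to between 1500 and 1730 CPM against 1990 to 2380 CPM, but they did not move together. In CPM, MYB, CEBPA, CEBPE and CD33 were lower with maltonis, and CTSG, LYZ, PRTN3, AZU1, CSF3R and ELANE were higher. ELANE had only 3, 6 and 2 counts without treatment and 406, 565 and 409 with maltonis. The 5 liver markers summed to between 0.377 and 0.671 CPM without treatment and 1.05 to 1.51 CPM with maltonis, of which ALB is absent without treatment by the rule. Without ALB the maltonis sums were 0.714 to 1.1 CPM, all from APOA1, and the other 3 markers were at 0 throughout. The 5 neuron markers summed to between 0.0516 and 0.203 CPM against 0.216 to 0.295 CPM, and the 5 germ cell markers to between 0.236 and 0.567 CPM against 0.0541 to 0.248 CPM. Of the 6 erythroid markers 4 were at 0 in every library. Markers of T and NK cells were present, at 82.4 to 88.4 CPM without treatment and 49.0 to 49.8 CPM with maltonis. Epithelial markers summed to between 36.6 and 38.4 CPM against 30.7 to 32.7 CPM. Those of B and plasma cells summed to between 21.5 and 32.4 CPM against 19.5 to 22.3 CPM. The 5 fibroblast markers reached 1.14 CPM in maltonis replicate 1, in which COL1A2 had 11 counts and COL1A1 and LUM 4 each, and at most 0.103 CPM in any other library; their part in the genes detected was not tested. Without maltonis replicate 1 the rule, then looser, found 347 symbols, which include the 207 by construction.

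The rule was also applied with 1 replicate number of both groups held out. The 207 were themselves chosen on all 6 libraries, so the shares below are no separate evidence for them. When the symbols were chosen on replicates 2 and 3 of both groups, 411 met the rule, and 62.3% of them had a count in the held-out maltonis library of replicate 1 against 15.6% in the not treated library of replicate 1. For held-out replicate 2 the corresponding shares were 75.5% and 33.3% of 424 symbols, and for replicate 3 they were 72.2% and 29% of 421 symbols. The held-out maltonis libraries held 1125, 2213 and 1759 counts on these symbols, and the held-out not treated libraries held 87, 247 and 188. The choosing rule at a minimum of 3 counts gave 112, 96 and 117 symbols, and 95.5%, all and 94.9% of them had a count in the held-out maltonis library against 24.1%, 35.4% and 42.7% in the held-out not treated library. In each round the share was higher in the held-out maltonis library. The 3 rounds share libraries. At a minimum of 1 count, the chosen symbols with a count in the held-out maltonis library but not in the held-out not treated one are by construction the 207. Against them stood 15, 28 and 25 symbols with a count in the held-out not treated library only. At a minimum of 3 counts, 81, 62 and 63 symbols had a count in the held-out maltonis library only, and all of them belong to the 207. Against them stood 1, 0 and 2 symbols. At both minimums the difference between the shares thus rests on the 207 themselves.

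**Figure D4:**
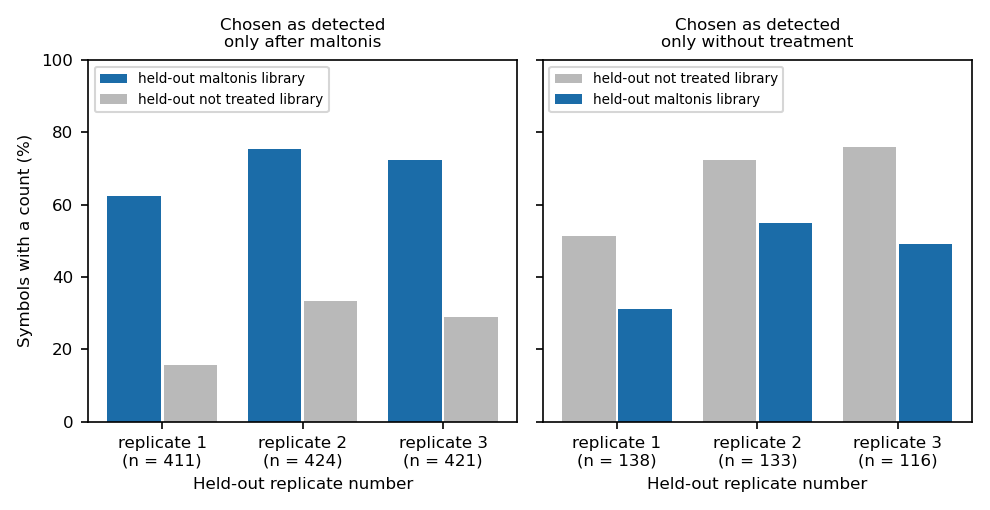
Share of symbols with a count (%) in the held-out maltonis library (blue) and the held-out not treated library (grey), for symbols chosen on the other replicates as detected only after maltonis (left) or only without treatment (right); n is the number chosen. On the left the blue bars lie between 62.3% and 75.5% and the grey bars between 15.6% and 33.3%, and on the right the grey bars lie between 51.4% and 75.9% and the blue bars between 31.2% and 54.9%.

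More symbols were detected in the maltonis libraries even when the 207 genes, and the 40 of the opposite kind, were left out. After every library had been thinned to 18492154 counts, 15086, 15080 and 15181 symbols had a count in the not treated libraries (15115.7 ± 56.7, SD, n = 3) and 15697, 15721 and 15678 in the maltonis libraries (15698.7 ± 21.5). The groups did not overlap and differed by 583.0 symbols (two-sided exact permutation test, p = 0.1, the smallest that 3 against 3 libraries allow). At the deposited depth the groups overlapped, and the difference was 493.0 symbols (exact permutation p = 0.3).

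The border of the rule was not a gap in the data. Just inside it, in alphabetical order, CELF5, CREG2, FAM194A, FBLL1 and GALNTL2 had 1 count in each maltonis library. Just outside it, 164 symbols had a count in all 3 maltonis libraries and a single count over the not treated libraries. The sialic acid receptor gene SIGLEC1 had 0, 1 and 0 counts without treatment and 63, 110 and 75 with maltonis, the RNA helicase gene DDX25 had 0, 1 and 0 against 39, 100 and 75, and ZNF556 had 1, 0 and 0 against 24, 48 and 39. SIGLEC1 and DDX25 thus had higher summed counts after maltonis than every gene inside the rule except XKR7. LILRP2 (0, 1 and 0 against 28, 36 and 29) and LRRC16A (0, 1 and 0 against 14, 39 and 31) followed. Of the symbols with counts in 2 maltonis libraries, IGSF9 had 0, 9 and 10 and INTS4L2 had 0, 17 and 1.

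In the edgeR fit over all genes, 15 of the 207 genes passed the filter on low counts, and all 15 were called higher. Of all genes tested 31.9% were called higher. The rule fixes the direction of the members, and the filter kept those with enough counts in the maltonis libraries. Nothing is read from the 15 calls.

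Few of the genes lay next to each other. In the order of protein-coding genes in GENCODE 29, which is on a later build than the deposited counts (hg19), 183 of the genes had a place and 2 pairs were adjacent. The developmental T-box factors TBX2 and TBX4 lie side by side and had 6, 3 and 3 counts and 2, 3 and 1 counts. The teneurin gene ODZ1 (now TENM1) and LOC100129520 (now TEX13C) had 1, 11 and 8 counts and 1, 2 and 1 counts.

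Neighbouring genes, which the rule did not use although their calls come from the same libraries, were counted by their calls, and the shares were not tested against each other. Of the 203 genes with a place, 114 had a nearest neighbour that could be tested, and 45 of these neighbours (39.5%) were higher after maltonis and 31 (27.2%) lower (edgeR, FDR under 0.01). For the nearest neighbours of all detected symbols the shares were 32.7% and 31.4%. The median log2 fold change of the neighbours was 0.11 against 0.04. Where an annotated gene overlapped the member, 13 of 25 tested (52.0%) were higher against 32.9% for all detected symbols, and reads of overlapping genes cannot be told apart where the counting ignored strand. Beside symbols detected only without treatment, 3 of 26 neighbours (11.5%) were higher and 16 (61.5%) lower.

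Some of the genes lay beside a relative. Of the flanking protein-coding genes that share the letters of the member's symbol before its first digit, 43 were counted, mostly near 0 counts. Among these 43, 9 could be tested, of which 4 were higher, 3 were lower and 2 did not pass the test (edgeR, FDR under 0.01). This count was made after the values were seen. It left out the C1 genes and symbols with other short or widely shared letters, such as CA, OR, FAM, TMEM and ZNF. Among those left out, FAM111A beside FAM111B rose (log2 fold change 0.79 ± 0.0511, SE, edgeR adjusted p = 1.64e-06), as did CA2 beside CA3 (2.25 ± 0.111, edgeR adjusted p = 3.86e-07). ZNF280B beside ZNF280A and ZNF257 beside ZNF676 did not pass the test (edgeR adjusted p = 0.972 and 0.648). The complement protease gene C1S, beside C1R, had 2, 7 and 9 counts without treatment and 24, 42 and 24 with maltonis (log2 fold change 2.42 ± 0.332, SE, edgeR adjusted p = 0.000172), and C1RL, which overlaps C1R on the same strand, had 40, 65 and 64 against 299, 480 and 415 (2.94 ± 0.11, edgeR adjusted p = 1.01e-07). RNASE11, beside RNASE9, had 1, 1 and 0 counts against 8, 11 and 13 (3.88 ± 0.618, edgeR adjusted p = 0.00044). SLC6A13, beside SLC6A12 and also a GABA transporter, had 3, 3 and 2 counts against 11, 14 and 11 (2.24 ± 0.428, edgeR adjusted p = 0.00132). DGCR9, which overlaps DGCR10 on the same strand, had 0, 6 and 4 counts against 19, 64 and 41 (3.68 ± 0.478, edgeR adjusted p = 0.000123). The reads of DGCR10 are therefore uncertain, since its locus had counts without treatment under the other symbol. The same holds for C1R and C1RL. For C1S, C1RL, RNASE11, SLC6A13 and DGCR9 the 3 maltonis counts exceeded all 3 not treated counts. Among the 43 counted, the relatives that fell were NLRP11 beside NLRP4, with 25, 31 and 33 counts against 4, 8 and 7 (log2 fold change -2.11 ± 0.296, edgeR adjusted p = 0.000203), DMRT2 beside DMRT3 (-1.25 ± 0.302, edgeR adjusted p = 0.00487) and RGS16 beside RGS8 (-1.11 ± 0.0631, edgeR adjusted p = 8.01e-07). CXCR6, a chemokine receptor gene beside XCR1, fell by 1.26 on the log2 scale (edgeR adjusted p = 0.000747). CTSG, the cathepsin G gene of neutrophil granules that lies beside GZMH, rose by 2.34 ± 0.0632 on the log2 scale (edgeR adjusted p = 2.77e-08), while GZMB on the other side had 0, 0 and 1 counts against 1, 4 and 1.

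Other genes stood beside unrelated genes that rose, or beside genes that did not. ALG14, an enzyme subunit of N-glycan synthesis beside TMEM56, rose by 1.61 ± 0.103 on the log2 scale (edgeR adjusted p = 1.63e-06). The interferon-stimulated gene SAMD9L, beside HEPACAM2 (12, 7 and 6 counts), rose by 3.31 ± 0.0799 (edgeR adjusted p = 2.05e-08), and BCAS3, beside TBX2, by 2.25 ± 0.0998 (edgeR adjusted p = 2.26e-07). XKR7 itself lies between PDRG1, which rose by 0.78 ± 0.156 (edgeR adjusted p = 0.00173), and C20orf160, which had 0 counts without treatment and 1, 3 and 0 with maltonis. TNPO1, the nuclear import receptor gene beside ZNF366, fell by 0.98 ± 0.0603 on the log2 scale (edgeR adjusted p = 1.26e-06), and PTCD2 on its other side differed by 0.11 ± 0.102 and did not pass the test (edgeR adjusted p = 0.355). LOC100131347 overlaps PLXDC1 on the opposite strand, and PLXDC1 had 1, 5 and 0 counts against 17, 20 and 17 (3.22 ± 0.582, edgeR adjusted p = 0.00094).

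Promoter windows from RefSeq covered 250 bases before to 50 bases after an annotated start in GRCh38.p14. None was matched for XKR7 and ZNF366, the genes with the most counts. For 142 of the 207 genes 199 windows were matched. Of these, 6 are printed in order to show how unlike the promoters of these genes are, from windows almost free of CG dinucleotides to CG-rich ones; each is written on the strand of its gene, and capitals mark a motif match on either strand.
GPM6A: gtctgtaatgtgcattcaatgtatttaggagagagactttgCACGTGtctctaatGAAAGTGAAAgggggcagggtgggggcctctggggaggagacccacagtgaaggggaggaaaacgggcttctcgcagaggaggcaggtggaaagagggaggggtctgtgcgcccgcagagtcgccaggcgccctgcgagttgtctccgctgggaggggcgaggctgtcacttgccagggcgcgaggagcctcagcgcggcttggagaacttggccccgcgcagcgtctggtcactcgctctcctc
XCR1: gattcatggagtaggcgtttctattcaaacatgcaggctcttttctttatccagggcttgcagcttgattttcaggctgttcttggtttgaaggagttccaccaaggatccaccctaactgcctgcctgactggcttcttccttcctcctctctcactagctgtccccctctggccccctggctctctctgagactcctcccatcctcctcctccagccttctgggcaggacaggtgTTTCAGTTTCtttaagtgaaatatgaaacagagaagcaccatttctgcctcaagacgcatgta
CRYBA4: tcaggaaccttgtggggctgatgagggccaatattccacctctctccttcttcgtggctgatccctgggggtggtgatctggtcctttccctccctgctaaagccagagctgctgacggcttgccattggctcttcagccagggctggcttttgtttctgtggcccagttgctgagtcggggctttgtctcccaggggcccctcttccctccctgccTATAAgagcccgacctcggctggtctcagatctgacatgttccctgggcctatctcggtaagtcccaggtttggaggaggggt
LEP: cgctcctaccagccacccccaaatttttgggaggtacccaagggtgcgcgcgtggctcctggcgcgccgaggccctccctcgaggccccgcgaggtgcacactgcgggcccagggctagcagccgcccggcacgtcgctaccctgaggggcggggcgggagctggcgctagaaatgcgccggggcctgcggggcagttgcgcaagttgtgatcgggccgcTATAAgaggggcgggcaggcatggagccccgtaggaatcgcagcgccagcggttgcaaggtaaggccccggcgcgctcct
CNGA4: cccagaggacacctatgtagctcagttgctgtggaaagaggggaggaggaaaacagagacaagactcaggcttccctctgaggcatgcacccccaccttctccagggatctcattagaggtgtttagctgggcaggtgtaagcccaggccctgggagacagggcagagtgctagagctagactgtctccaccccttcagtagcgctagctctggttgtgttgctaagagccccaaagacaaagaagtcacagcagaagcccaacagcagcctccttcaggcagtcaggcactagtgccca
ALB: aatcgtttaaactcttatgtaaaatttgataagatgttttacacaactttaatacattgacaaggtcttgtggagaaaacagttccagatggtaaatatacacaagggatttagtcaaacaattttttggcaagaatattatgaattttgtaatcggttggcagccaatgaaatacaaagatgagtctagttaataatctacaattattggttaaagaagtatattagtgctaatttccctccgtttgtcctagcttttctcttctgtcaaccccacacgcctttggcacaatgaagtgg
Of 4 windows of GPM6A, the one printed (chr4:176002344-176002643, minus strand) alone holds the MYC E-box CACGTG and an interferon-stimulated response element (GAAA, any 2 bases, GAAA), and has 18 CG dinucleotides. The XCR1 window (chr3:46027434-46027733, minus strand) holds the same response element read on the opposite strand and has 2 CG. The windows of CRYBA4 (chr22:26621713-26622012, plus strand) and LEP (chr7:128241028-128241327, plus strand) hold a TATAA motif close before the start and have 6 and 32 CG. The windows of CNGA4 (chr11:6238839-6239138, plus strand) and ALB (chr4:73404037-73404336, plus strand) hold none of the motifs searched and have 1 and 4 CG.

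Across all 199 windows the median was 9.0 CG dinucleotides, against 24.0 in the 15750 windows of symbols with a count in all 6 libraries. The median was 10.0 CG for the remaining symbols with a count in 1 to 5 libraries (3528 windows) and 6.0 for symbols at 0 in all 6 libraries (3145 windows). Windows with at most 5 CG made up 38.7%, 13%, 34.9% and 49.0% of these sets in the same order. The 36 windows of symbols detected only without treatment had a median of 18.0 CG, and 13.9% of them had at most 5. A low CG content was thus also found in other sparsely detected symbols, but less in the symbols detected only without treatment, and none of these differences was tested. CG-rich promoters are typical of widely expressed genes. DNA methylation was not measured in these libraries.

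**Figure D5:**
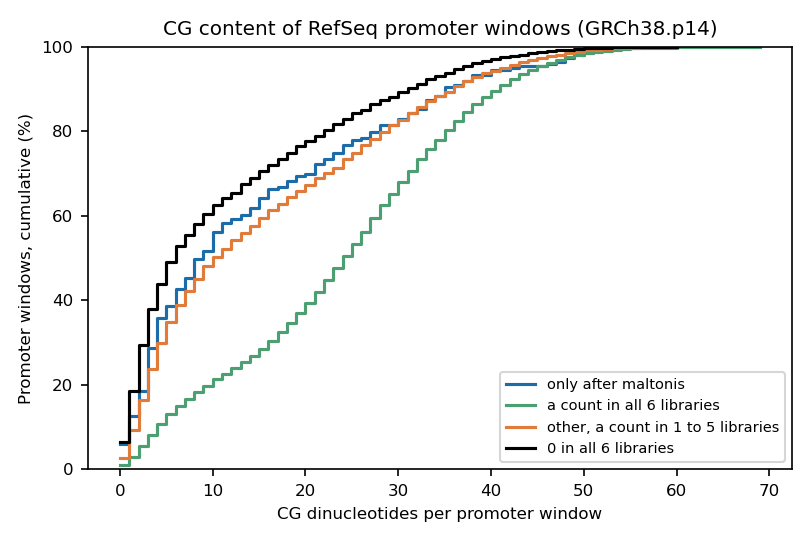
Cumulative share of promoter windows (%) by the number of CG dinucleotides per window, for genes detected only after maltonis, symbols with a count in all 6 libraries, other symbols with a count in 1 to 5 libraries, and symbols at 0 in all 6 libraries. The median of the genes detected only after maltonis (9.0) lies between those of the undetected (6.0) and other sparsely detected symbols (10.0), and that of the symbols detected throughout is higher (24.0).

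Motifs were searched by their letters on both strands. The interferon-stimulated response element was found in 10 windows (5.03%), against 3.09% of the windows of all detected symbols and 3.57% of all RefSeq windows. The genes with such a window were LTBP1, EPHA4, XCR1, GPM6A, PCDHA8, RAPGEF5, IFNA13, CTNNA3, KRT12 and ODZ1. The gamma-activated sequence TTCNNNGAA was found in 9.05% of windows against 6.57% and 7.66%, the AP-1 site TGANTCA in 7.54% against 5.83% and 7.71%, and the antioxidant response core TGACNNNGC in 14.1% against 14.2% and 13.3%. The E-box CACGTG was found in 7.54% against 8.7% and 7.26%, and TATAA in 20.1% against 14.2% and 20.4%. These shares were not tested against each other, and a match is a description of letters and not a site of binding.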

How the data were processed

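NB4 RNA-seq libraries were grouped by their labels, 3 not treated and 3 with 10 µM maltonis for 24 h. The authors deposited whole-number HTSeq counts per gene symbol, without normalization; the submitters' processing notes name TopHat, Bowtie2, HTSeq and hg19, and no versions. The strand setting of the counting is not given in the sources used here, so paralogs and overlapping or antisense genes are uncertain. The members and gene lists were chosen with earlier results of these data known, and the tissue classes were made by hand after the names were seen.

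Counts were divided by library totals (CPM), and lengths and gene order came from GENCODE 29. Symbols were matched to RefSeq by symbol (167 members), synonym (21) or gene ID (15), and 4 had no match. edgeR 4.0.16 (R 4.3.3; TMM, filterByExpr, quasi-likelihood test, Benjamini-Hochberg adjustment, FDR under 0.01) used all 6 libraries without covariates and was tested on simulated data. DESeq2 1.42.0 was an alternative. Genes were named by a rule: the first 25 by lowest CPM, those on the gene lists, adjacent members, noncoding types, 5 on each side of the border, and the neighbours of these. HEPACAM2, OR51E1, the genes with a response element, the other members of the list of lengths and the neighbours singled out were chosen after their values were seen. Depth was 18492154 to 38205483 counts per library, and floors and intervals cover counting error only. Replicate libraries differed by more than sampling noise (chi-square per degree of freedom 4.15 to 33.1). A result on the list of liver, kidney, gut and pancreas genes is not reported here.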

Additional observations from a re-analysis of the deposited data

How the results depend on the processing

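The number of genes detected only after maltonis depended on the minimum: it was 207 at 1 count, and 89, 57, 29 and 12 at 2, 3, 5 and 10 counts. It was 371 when at most 1 count over the not treated libraries was allowed and 233 after thinning, of which 147 were among the 207. Leaving out 1 library gave 256 to 347, each including the 207 by construction; without maltonis replicate 1 it was 347 and without not treated replicate 2 it was 320. Codes in the names of the deposited libraries part replicate 1 from replicates 2 and 3, without a stated meaning; replicate 1 alone gave 1357 symbols and replicates 2 and 3 gave 411. The symbols detected only without treatment numbered 40, and 18, 13, 4 and 1 at the higher minimums, 115 with at most 1 count allowed, 54 after thinning, 59 to 96 without 1 library, 626 in replicate 1 alone and 138 in replicates 2 and 3. In every one of these settings the number was larger for maltonis.

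The genes higher and lower over all genes tested, 4213 and 4239, stayed within 1.5 times under every scaling, filter and test tried. Their balance depended on the scaling. With total counts only 4902 were higher and 3652 lower, and with the upper quartile 4722 and 3820. With DESeq2 size factors they were 4193 and 4249. In the main setting 15 members were tested and all were called higher, against 31.9% of all genes tested. With no filter all 207 were tested and 60 were called higher, against 4363 of all 18253 genes tested. Without 1 library 18 to 31 were tested and all were called higher, as fewer samples change the filter. They numbered 31 without not treated replicate 1, 25 without maltonis replicate 1 and 23 without not treated replicate 2 or 3. Deviations of same-numbered libraries correlated at 0.301, 0.085 and 0.161, and not every library correlated best with its own number. Correlations were also positive between replicates 2 and 3 of different groups (0.139 and 0.123) and negative between replicate 1 and either of them (-0.232 to -0.162), the split of the codes, so the numbers were not taken to pair the libraries. With a replicate block 4602 genes were higher and 4620 lower. Without the 207 and the 40, the difference in detected symbols was 583.0, and it was 493.0 at the deposited depth, 431.7 and 361.3 at minimums of 3 and 10 counts, 565.2 to 615.7 without 1 library, and 733.0 with all symbols counted, an alternative chosen after seeing the data. The share of neighbours called higher was 39.5%, 43.8% on the same strand and 52.0% for overlapping genes. CPM with TMM library sizes moved the levels of the 25 genes ranked first by less than 1 SD in all 25 cases; RPKM is another unit and was not set against CPM. The depth limits detection to 3 counts, or 0.0326 CPM over the not treated libraries.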
